A study of Mus musculus with 9 samples.

Results

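The secreted modulators of Wnt signaling considered here are 10 genes, 7 inhibitors (*Dkk1*, *Dkk2*, *Dkk3*, *Sfrp1*, *Sfrp2*, *Frzb* and *Wif1*) and 3 R-spondins (*Rspo1*, *Rspo2* and *Rspo3*). The list was set by gene name, with earlier results of these data known, and holds 10 of the 19369 genes with an estimate above 0 in at least 1 sample. RNA-Seq of wild-type C57BL/6 mouse embryos gave 9 samples, 3 for each stage, with no treatment or altered allele in any of them. The E10.5 samples held periocular neural crest (pNC), the migratory mesenchyme around the early eye from which corneal stroma and endothelium form, dissected free of ectoderm, lens vesicle and optic cup. The E14.5 and E16.5 samples held whole corneas, so that the epithelium is part of these samples and was removed from the E10.5 samples, and tissue type changes along with age. Tissue of many eyes was pooled into each sample, and a sample is thus an average over embryos and cell types. Levels are given as FPKM, fragments scaled to transcript length and library size, which allows genes to be set side by side, as mean ± SD over the 3 samples of a stage. Changes between stages are log2 fold changes with their standard error (SE) from edgeR's quasi-likelihood test on expected counts, with Benjamini-Hochberg adjusted p over 14771 genes, and a gene was called where this p was under 0.05 and expression changed by 1 or more on the log2 scale.

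Wnt ligands bind a Frizzled receptor together with the coreceptors Lrp5 or Lrp6, and in the canonical branch this stabilizes β-catenin, which then acts with TCF/LEF factors on target genes. Dickkopf proteins of the Dkk1 and Dkk2 kind bind Lrp5 and Lrp6 and work with the Kremen receptors, whereas secreted Frizzled-related proteins (SFRPs) and Wif1 bind the Wnt ligands themselves. R-spondins act in the opposite direction: they bind Lgr4, Lgr5 and Lgr6 and the membrane ubiquitin ligases Znrf3 and Rnf43, which otherwise remove Frizzled from the cell surface. In the eye, *Dkk2* is known from mouse genetics as a neural crest gene needed for the ocular surface ectoderm to keep its corneal fate.

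In GRCm38.p6, *Dkk1* lies at chr19:30545876-30549496, *Dkk2* at chr3:132085266-132180304, *Dkk3* at chr7:112116019-112159482, *Sfrp1* at chr8:23411383-23449632, *Sfrp2* at chr3:83765750-83774314, *Frzb* at chr2:80411970-80447396, *Wif1* at chr10:121034004-121100642, *Rspo1* at chr4:124986401-125009102, *Rspo2* at chr15:43020788-43171594 and *Rspo3* at chr10:29453106-29535867. Promoter windows from RefSeq, reaching from 250 bases before to 50 bases after the annotated start, were at hand for 6 of the 10 genes. Of these 6, 4 are shown because their genes moved most clearly between stages: *Dkk1* and *Dkk2* rose and stayed high, *Wif1* rose at E14.5 alone, and *Frzb* fell. Capitals mark CTTTGA, a form of the TCF/LEF core motif, and the TATA box letters TATAAA on either strand. A match on the minus strand thus reads TCAAAG or TTTATA.
Dkk1 promoter, chr19:30549447-30549746, minus strand: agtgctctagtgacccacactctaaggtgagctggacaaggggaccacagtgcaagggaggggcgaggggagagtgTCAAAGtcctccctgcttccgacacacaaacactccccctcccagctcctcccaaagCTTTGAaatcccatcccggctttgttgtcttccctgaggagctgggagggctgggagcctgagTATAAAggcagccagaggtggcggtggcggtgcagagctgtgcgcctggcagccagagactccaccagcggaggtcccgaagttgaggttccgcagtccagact
Dkk2 promoter, chr3:132085042-132085341, plus strand: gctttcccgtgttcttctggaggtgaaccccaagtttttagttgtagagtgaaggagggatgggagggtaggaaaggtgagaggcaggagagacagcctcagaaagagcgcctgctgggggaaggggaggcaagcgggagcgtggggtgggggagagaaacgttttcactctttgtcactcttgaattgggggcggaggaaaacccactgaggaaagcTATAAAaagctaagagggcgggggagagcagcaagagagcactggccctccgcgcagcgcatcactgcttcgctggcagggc
Wif1 promoter, chr10:121033754-121034053, plus strand: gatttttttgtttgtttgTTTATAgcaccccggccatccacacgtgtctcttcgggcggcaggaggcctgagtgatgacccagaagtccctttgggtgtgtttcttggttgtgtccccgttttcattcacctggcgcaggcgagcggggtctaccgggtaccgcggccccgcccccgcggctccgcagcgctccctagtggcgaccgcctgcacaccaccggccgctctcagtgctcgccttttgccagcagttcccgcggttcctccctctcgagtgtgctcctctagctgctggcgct
Frzb promoter, chr2:80447347-80447646, minus strand: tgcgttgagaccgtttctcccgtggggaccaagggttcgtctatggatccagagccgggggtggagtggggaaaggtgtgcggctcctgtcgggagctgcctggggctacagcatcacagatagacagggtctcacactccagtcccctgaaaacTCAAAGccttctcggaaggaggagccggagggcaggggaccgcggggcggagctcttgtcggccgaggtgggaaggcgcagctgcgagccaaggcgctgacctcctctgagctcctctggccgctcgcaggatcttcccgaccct

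CTTTGA was found at 2 places in the *Dkk1* window, at positions -174 and -117 from the annotated start, and at 1 place in the *Frzb* window, at -95. The windows of *Dkk2*, *Wif1*, *Sfrp2* and *Rspo1* did not hold these letters, and other forms of the TCF/LEF core motif were not searched. TATAAA was found in the windows of *Dkk1* at -54, *Dkk2* at -32 and *Wif1* at -232, in the last on the minus strand. Positions count from the annotated start on which each window was built. For *Dkk2*, *Sfrp2* and *Rspo1* this start lies inside the gene span given above, downstream of its first base. Of the 6 windows, only that of *Dkk1* held both CTTTGA and TATAAA. Of 32851 RefSeq promoter windows of the same length, 16% held CTTTGA and 13.6% held TATAAA, and a match is a description of the letters, not a shown binding site.

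Expected counts summed to between 8745161 and 9069023 per sample. Markers of the cornea followed the labels. The summed FPKM of 5 stromal genes (*Kera*, *Lum*, *Dcn*, *Col5a1* and *Ogn*) lay between 75.9 and 95.8 at E10.5, between 1603 and 4165 at E14.5 and between 5349 and 5706 at E16.5. The sum of 7 epithelial genes (*Krt5*, *Krt14*, *Krt15*, *Krt12*, *Trp63*, *Cdh1* and *Epcam*) lay between 24.6 and 38.7 at E10.5. It lay between 570 and 1988 at E14.5 and between 5084 and 7386 at E16.5. E14.5 replicate 1 stood apart from the other E14.5 samples, with the upper end of both E14.5 ranges, and its counts differed from theirs with chi-square values of 26.2 and 26.3 per degree of freedom, against 2.94 to 10.3 for the other pairs of replicates. Calls of named genes that this sample changes, and their called values that it moves by over 1.5 times, are given below with and without it.

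All 10 genes passed the filter on low counts. Between E10.5 and E14.5, 4 of them were called higher (*Dkk1*, *Dkk2*, *Dkk3* and *Wif1*) and 5 lower (*Sfrp1*, *Sfrp2*, *Frzb*, *Rspo2* and *Rspo3*), where 13.6% of all genes tested were called higher and 7.97% lower. Between E10.5 and E16.5, 3 were called higher (*Dkk1*, *Dkk2* and *Dkk3*) and 3 lower (*Frzb*, *Rspo2* and *Rspo3*), beside 19.4% and 15.4% of all genes. Between E14.5 and E16.5, 1 was called higher (*Sfrp1*) and 3 lower (*Frzb*, *Wif1* and *Rspo2*), beside 6.26% and 5.47% of all genes. The last count of 3 became 1 without E14.5 replicate 2, E14.5 replicate 3, E16.5 replicate 1 or E16.5 replicate 2. The absolute log2 fold change of the 10 genes had a median of 1.98, 2.01 and 0.67 in the 3 comparisons, against 0.45, 0.67 and 0.30 over all genes tested. With library totals in place of TMM scaling, the calls of the members were the same in number, but over all genes the split between E14.5 and E16.5 turned from 924 higher and 808 lower to 731 higher and 1099 lower, and the median log2 fold change of all genes moved to -0.19. The same scaling moved the median between E10.5 and E16.5 to -0.15. A change in such bulk samples can come from a different number of cells that express a gene or from a different level per cell, and these cannot be told apart.

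**Figure D1:**
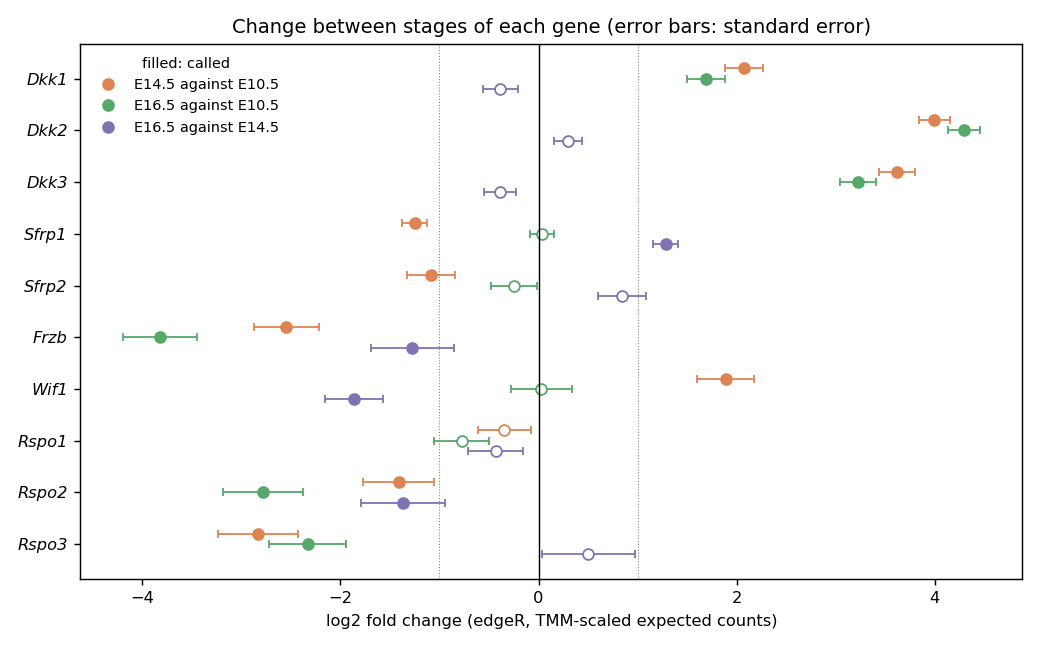
Log2 fold change of each of the 10 genes in the 3 comparisons of stages, with standard errors, filled points marking genes called by edgeR and dotted lines the minimum of 1 in either direction. The 3 Dickkopf genes lie to the right in both comparisons with E10.5, with *Dkk2* at 3.99 and 4.29, while *Sfrp1* and *Wif1* lie on opposite sides at E14.5 and close to 0 between E10.5 and E16.5.

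*Dkk2*, a secreted ligand of Lrp5 and Lrp6, was the most abundant of the 10 genes in the cornea. Its FPKM was 18.74, 18.24 and 14.1 in the 3 E10.5 samples, 237.76, 290.01 and 293.52 at E14.5, and 266.03, 330.55 and 305.67 at E16.5. Every corneal sample lay far above every pNC sample, and the ranges of E14.5 and E16.5 overlapped. The mean rose from 17.0 ± 2.55 to 274 ± 31.2 at E14.5, a 15.9-fold increase (log2 fold change 3.99, SE 0.16, adjusted p = 4.1e-08), and was 301 ± 32.5 at E16.5, 19.6-fold above E10.5 (4.29, SE 0.16, adjusted p = 2.2e-08). Between the corneal stages the log2 fold change of *Dkk2* was 0.30 (95% interval -0.01 to 0.60, adjusted p = 0.121). Ranked by FPKM among all genes of a sample, *Dkk2* stood between places 4680 and 5803 at E10.5, between 173 and 221 at E14.5 and between 156 and 195 at E16.5.

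*Dkk3* encodes a divergent Dickkopf protein, which is not known as a strong ligand of Lrp5 or Lrp6. It had an FPKM of 6.13, 6.04 and 3.46 at E10.5, 67.79, 57.4 and 68.4 at E14.5, and 43.17, 43.26 and 45.7 at E16.5. None of the stages overlapped, with the E14.5 samples highest. *Dkk3* rose 12.3-fold at E14.5 (log2 fold change 3.62, SE 0.18, adjusted p = 1.8e-07) and was 9.36-fold above E10.5 at E16.5 (3.23, SE 0.18, adjusted p = 1.7e-07). From E14.5 to E16.5 its log2 fold change was -0.39 (SE 0.16, adjusted p = 0.0794), and part of the difference in FPKM is one of scale, since the E16.5 mean of *Dkk3* is 44.0 as deposited and 47.4 after rescaling by the TMM factors.

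*Dkk1*, the founding member of the family and itself a transcriptional target of canonical Wnt signaling, was at a lower level throughout. Its FPKM was 2.82, 4.27 and 3.21 at E10.5, 16.86, 13.31 and 13.84 at E14.5, and 8.07, 10.11 and 11.94 at E16.5. The 3 stages did not overlap, and E14.5 was again highest. *Dkk1* rose 4.21-fold at E14.5 (log2 fold change 2.07, SE 0.19, adjusted p = 9.8e-06) and was 3.23-fold above E10.5 at E16.5 (1.69, SE 0.19, adjusted p = 1.8e-05). Between E14.5 and E16.5 its log2 fold change of -0.38 did not pass the test (adjusted p = 0.114). RSEM gave *Dkk1*, *Dkk2* and *Sfrp1* counts that were not whole in all 9 samples, so some of their reads were shared with other sequences. Each of these genes was listed with 1 transcript, so the sharing was not between transcripts of the same gene.

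**Figure D2:**
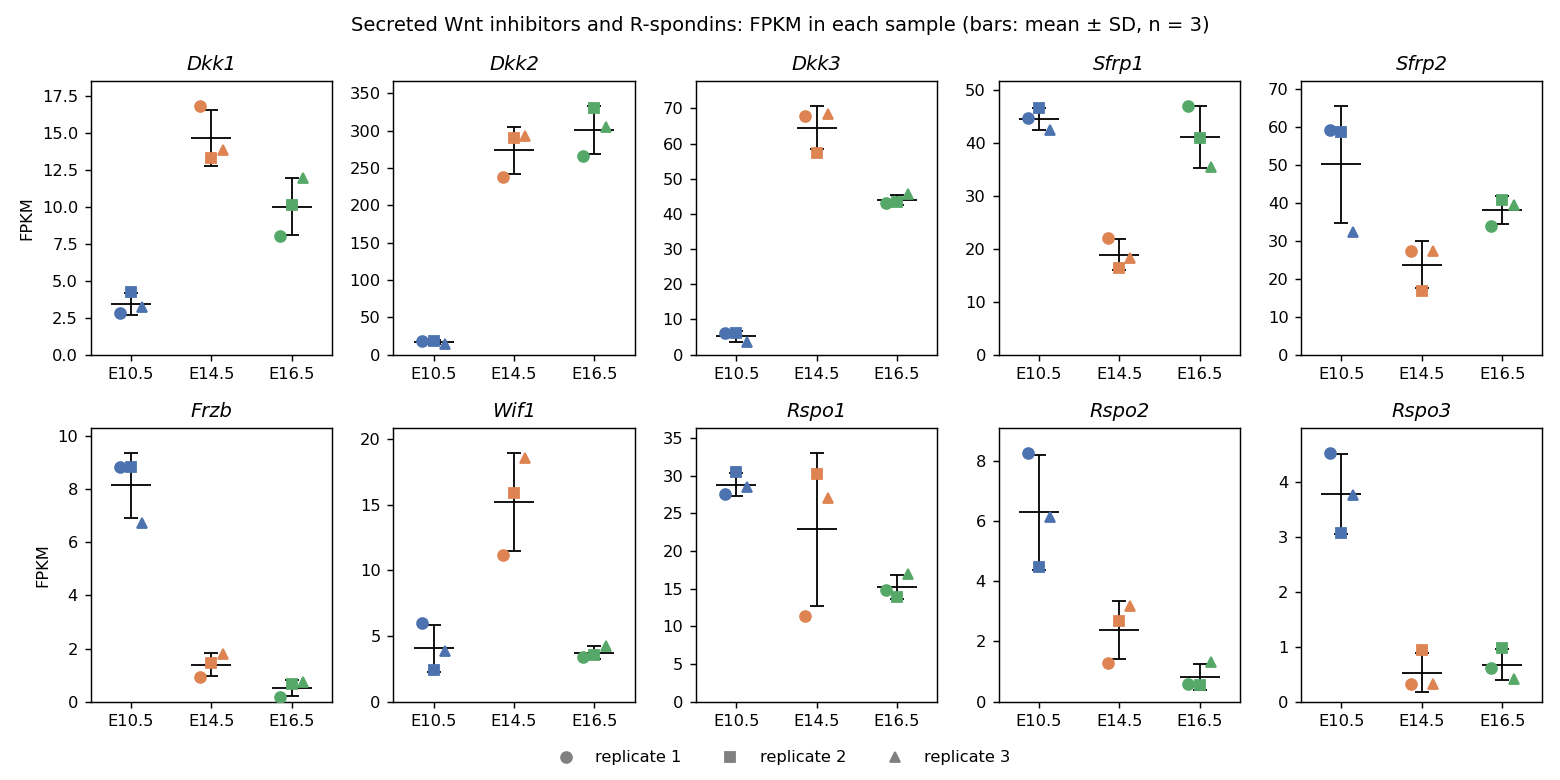
FPKM of the 10 genes in each sample by stage, on a linear axis that starts at 0 and differs between panels, with marker shapes for replicates and a bar at the mean with its SD (n = 3). All corneal samples exceed all pNC samples for *Dkk1*, *Dkk2* and *Dkk3*, all E14.5 samples lie below the other stages for *Sfrp1* and above them for *Wif1*, and E14.5 replicate 1 (11.34) lies below the other E14.5 samples for *Rspo1*.

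The SFRPs went the other way at E14.5. *Sfrp1* had an FPKM of 44.76, 46.58 and 42.46 at E10.5, 22.02, 16.38 and 18.37 at E14.5, and 47.06, 41.0 and 35.47 at E16.5. The 3 E14.5 samples lay below all others, and the E10.5 and E16.5 samples overlapped. *Sfrp1* fell 2.38-fold at E14.5 (log2 fold change -1.25, SE 0.13, adjusted p = 1.8e-05) and rose 2.43-fold from E14.5 to E16.5 (1.28, SE 0.13, adjusted p = 2.7e-04). Between E10.5 and E16.5 the log2 fold change was 0.03, with a 95% interval from -0.24 to 0.30 (adjusted p = 0.827).

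*Sfrp2*, a close relative of *Sfrp1*, had an FPKM of 59.4, 58.83 and 32.4 at E10.5, 27.29, 16.73 and 27.32 at E14.5, and 33.87, 40.81 and 39.61 at E16.5. The E14.5 samples were again lowest and overlapped with neither stage, but E10.5 replicate 3 lay far below the other E10.5 samples and under the E16.5 range. The fall at E14.5 was 2.13-fold (log2 fold change -1.09, SE 0.24, adjusted p = 0.00296). This call was lost because the fold change came under the minimum without E10.5 replicate 1 (-0.95), E10.5 replicate 2 (-0.97) or E14.5 replicate 2 (-0.88), while the adjusted p stayed below 0.05 in each of these fits. From E14.5 to E16.5 the log2 fold change of *Sfrp2* was 0.84 (SE 0.24, adjusted p = 0.0213), under the minimum, and from E10.5 to E16.5 it was -0.25 (95% interval -0.77 to 0.27, adjusted p = 0.367).

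*Frzb*, also known as *Sfrp3*, did not share the return at E16.5. Its FPKM was 8.85, 8.84 and 6.73 at E10.5, 0.93, 1.47 and 1.8 at E14.5, and 0.16, 0.66 and 0.73 at E16.5. The stages did not overlap, and the levels were low in the cornea, resting on 24, 38 and 47 counts at E14.5 and on 4, 17 and 19 counts at E16.5. *Frzb* fell 5.83-fold at E14.5 (log2 fold change -2.54, SE 0.33, adjusted p = 8.9e-05) and was 14.1-fold lower at E16.5 than at E10.5 (-3.82, SE 0.37, adjusted p = 5.5e-06). Its further fall from E14.5 to E16.5 (-1.28, SE 0.42, adjusted p = 0.0367) was lost when any of 6 single samples was left out: E10.5 replicate 1 (adjusted p = 0.0525), E10.5 replicate 2 (0.0547), E14.5 replicate 2 (0.0860), E14.5 replicate 3 (0.122), E16.5 replicate 1 (0.0880) or E16.5 replicate 2 (0.0549).

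*Wif1*, which encodes a secreted protein that binds Wnt ligands through its WIF domain, was high at E14.5 alone. Its FPKM was 5.96, 2.41 and 3.84 at E10.5, 11.19, 15.91 and 18.54 at E14.5, and 3.37, 3.58 and 4.27 at E16.5. Each E14.5 sample exceeded each sample of the other stages, which overlapped. *Wif1* rose 3.71-fold at E14.5 (log2 fold change 1.89, SE 0.29, adjusted p = 3.0e-04) and fell 3.64-fold from E14.5 to E16.5 (-1.86, SE 0.29, adjusted p = 0.00128). Between E10.5 and E16.5 its log2 fold change was 0.03, with a 95% interval from -0.66 to 0.71 (adjusted p = 0.944). The pattern over the stages was the reverse of that of *Sfrp1*.

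Among the R-spondins, *Rspo1* was the most abundant at every stage. Its FPKM was 27.53, 30.46 and 28.47 at E10.5, 11.34, 30.28 and 27.03 at E14.5, and 14.78, 13.88 and 16.98 at E16.5. E14.5 replicate 1, the sample that stood apart, lay below all others, while the other E14.5 samples were at the E10.5 level. All 3 E16.5 samples were below all E10.5 samples, and the log2 fold change between these stages was -0.77 (SE 0.28, adjusted p = 0.0267), under the minimum for a call. With all samples, *Rspo1* changed by -0.34 from E10.5 to E14.5 (adjusted p = 0.301) and by -0.43 from E14.5 to E16.5 (adjusted p = 0.256). Without E14.5 replicate 1 these values were -0.01 (adjusted p = 0.909) and -0.76 (adjusted p = 7.9e-05), and the E14.5 mean was 28.7 in place of 22.9 ± 10.1. The 5′ end of *Rspo1* overlaps the lncRNA *Gm12930* in the annotation, a gene for which no value was found in these samples.

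*Rspo2* had an FPKM of 8.25, 4.46 and 6.14 at E10.5, 1.29, 2.67 and 3.17 at E14.5, and 0.58, 0.57 and 1.31 at E16.5. The E10.5 samples lay above all corneal samples, and E14.5 and E16.5 overlapped. *Rspo2* was 2.66-fold lower at E14.5 (log2 fold change -1.41, SE 0.36, adjusted p = 0.00642) and 6.89-fold lower at E16.5 (-2.78, SE 0.40, adjusted p = 1.0e-04) than at E10.5. Its fall from E14.5 to E16.5 (-1.37, SE 0.42, adjusted p = 0.0284) was lost without E14.5 replicate 2 (adjusted p = 0.0793), E14.5 replicate 3 (0.104), E16.5 replicate 1 (0.102) or E16.5 replicate 2 (0.1004).

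*Rspo3* had an FPKM of 4.52, 3.06 and 3.76 at E10.5, 0.33, 0.94 and 0.32 at E14.5, and 0.62, 0.98 and 0.42 at E16.5. All pNC samples were above all corneal samples, whose 2 stages overlapped and rested on 7 to 21 counts per sample. *Rspo3* fell 7.12-fold at E14.5 (log2 fold change -2.83, SE 0.40, adjusted p = 1.75e-04) and was 5.02-fold lower at E16.5 than at E10.5 (-2.33, SE 0.39, adjusted p = 2.75e-04). Between the corneal stages the log2 fold change was 0.50 with a 95% interval from -0.54 to 1.55 (adjusted p = 0.440), which at this depth leaves both a fall and a rise within the interval. Without E14.5 replicate 2, which had 20 counts against 7 in each of the other E14.5 samples, the log2 fold change was -3.51 at E14.5 and 1.18 between the corneal stages (adjusted p = 0.0976).

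The order of the levels changed between pNC and cornea. At E10.5 the mean FPKM was highest for *Sfrp2* (50.2 ± 15.4), *Sfrp1* (44.6 ± 2.06), *Rspo1* (28.8 ± 1.496) and *Dkk2* (17.0 ± 2.55), of which only *Sfrp2* and *Sfrp1* overlapped in range with their neighbour. The other 6 genes lay between 8.14 ± 1.22 for *Frzb* and 3.43 ± 0.750 for *Dkk1*, and each overlapped with the next in order. At E14.5 *Dkk2* and *Dkk3* (64.5 ± 6.18) led, each apart from the next, and *Sfrp2*, *Rspo1*, *Sfrp1*, *Wif1* and *Dkk1* followed with means from 23.8 to 14.7 and ranges that overlapped from each gene to the next. *Rspo2* (2.38 ± 0.974), *Frzb* (1.40 ± 0.439) and *Rspo3* (0.530 ± 0.355) were lowest. At E16.5 *Dkk2* led again, *Dkk3* (44.0 ± 1.44), *Sfrp1* (41.2 ± 5.80) and *Sfrp2* (38.1 ± 3.71) could not be separated from their neighbours by range, and *Rspo1* (15.2 ± 1.59), *Dkk1* (10.04 ± 1.94) and *Wif1* (3.74 ± 0.471) followed without overlap.

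Summed over the 7 inhibitors, FPKM was 133 ± 23.0 in pNC, 412 ± 29.0 in E14.5 corneas and 438 ± 34.4 in E16.5 corneas. *Dkk2* made up 12.9% of this sum in pNC, 66.3% in the E14.5 cornea and 68.5% in the E16.5 cornea. Without *Dkk2* the sum of the other 6 inhibitors was 116 ± 20.4, 139 ± 15.0 and 138 ± 1.86, so that the rise of the total was mostly a rise of 1 transcript. The 3 R-spondins summed to 38.9 ± 1.24, 25.8 ± 11.2 and 16.7 ± 1.76, with *Rspo1* at 74.2%, 88.5% and 91.1% of the sum. The ratio of summed inhibitor FPKM to summed R-spondin FPKM was between 2.77 and 3.82 in the E10.5 samples, between 12.1 and 29.6 at E14.5 and between 23.7 and 30.5 at E16.5. The highest E14.5 value was that of replicate 1, and the other E14.5 samples were at 12.1 and 14.48. With *Dkk2* left out, the ratio lay between 2.40 and 3.34, between 3.58 and 11.3, and between 7.36 and 9.04 at the 3 stages. The upper end at E14.5 was replicate 1 alone, with the other E14.5 samples at 3.58 and 4.86. These are sums of transcript levels, and they say nothing of protein amounts or of how strongly each protein acts.

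**Figure D3:**
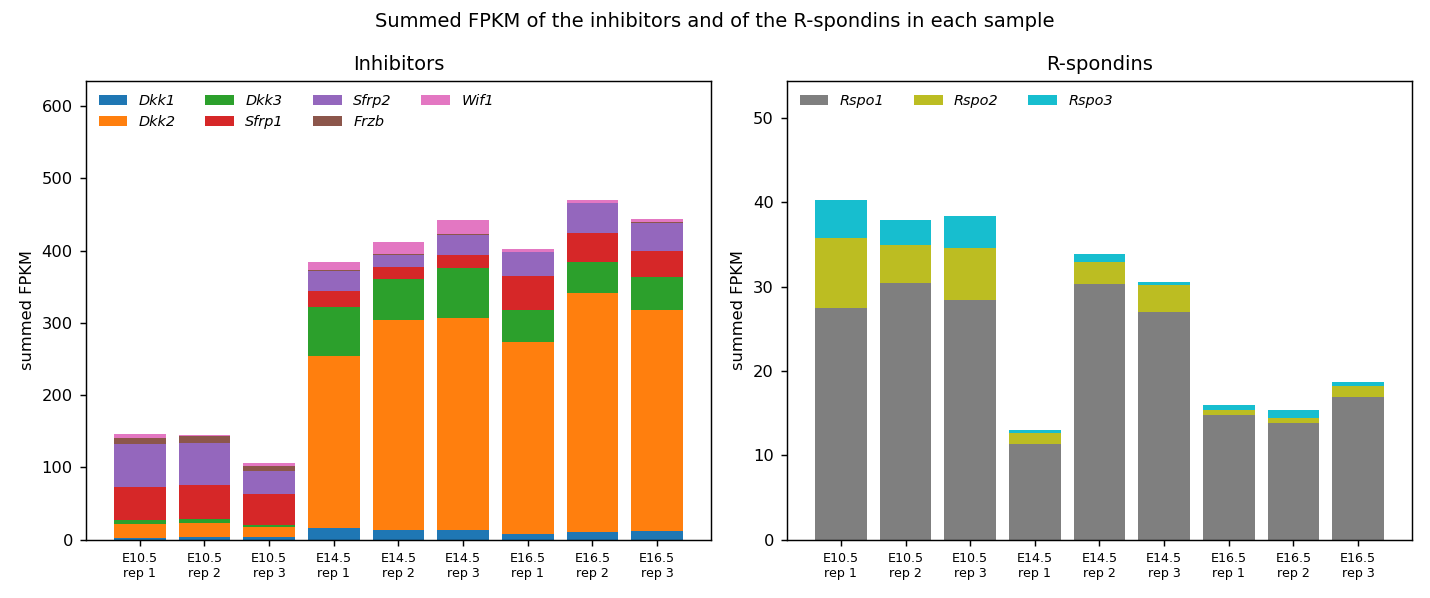
Summed FPKM of the 7 inhibitors (left) and the 3 R-spondins (right) in each of the 9 samples, stacked by gene on linear axes that start at 0 and differ in scale. *Dkk2* fills most of each corneal bar at left, and at right E14.5 replicate 1, with a sum of 13.0, is lower than the other E14.5 samples, at 33.9 and 30.5.

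The receptors and partners of these proteins were followed in the same samples. Of the 9 listed, 5 were called higher and 1 lower in each comparison of cornea with pNC. Over all genes tested, 13.6% were called higher and 7.97% lower at E14.5, and 19.4% and 15.4% at E16.5. Between E14.5 and E16.5, *Kremen1* (0.75, adjusted p = 6.7e-04), *Kremen2* (-0.51, adjusted p = 0.0233) and *Rnf43* (0.57, adjusted p = 0.00520) passed the adjusted p with changes under the fold minimum, and the other 6 did not pass it. *Kremen1*, which with Dickkopf removes Lrp6 from the cell surface, had a mean FPKM of 8.03 ± 0.694, 29.3 ± 2.82 and 44.1 ± 2.38 and rose by 1.86 (SE 0.10, adjusted p = 3.1e-07) at E14.5 and 2.61 (SE 0.10, adjusted p = 3.3e-08) at E16.5 on the log2 scale. *Kremen2* rose as well, with means of 4.35 ± 1.14, 23.0 ± 0.917 and 14.4 ± 1.53 (log2 fold changes 2.39 and 1.88). The coreceptors themselves were called in no comparison: *Lrp5* changed by -0.04 (95% interval -0.37 to 0.30) and *Lrp6* by -0.12 (-0.34 to 0.10) at E14.5, against 0.08 and -0.15 at E16.5.

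The R-spondin receptors moved in different directions. *Lgr4*, the most abundant of the 3, rose from 10.9 ± 0.989 to 27.4 ± 5.48 at E14.5 (log2 fold change 1.32, SE 0.14, adjusted p = 2.3e-05) and was at 24.1 ± 2.46 at E16.5. *Lgr5* fell from 1.46 ± 0.351 to 0.320 ± 0.114 and 0.117 ± 0.061 (log2 fold changes -2.20 and -3.53). Its change of -1.33 from E14.5 to E16.5 (adjusted p = 0.0502) was called without E14.5 replicate 1 (-1.45, adjusted p = 0.0394) or E16.5 replicate 3 (-1.72, adjusted p = 0.0481). *Lgr6* rose from 0.193 ± 0.111 to 1.06 ± 0.372 and 0.507 ± 0.097 (2.41 and 1.52), at low levels as well. *Rnf43*, which encodes one of the ubiquitin ligases that R-spondins bind, rose from 1.43 ± 0.277 to 7.01 ± 0.290 and 9.30 ± 0.860 (log2 fold changes 2.28 and 2.85). *Znrf3*, its relative, changed by 0.38 at E14.5 (adjusted p = 0.0269) and 0.72 at E16.5 (adjusted p = 4.6e-04), both under the fold minimum.

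**Figure D4:**
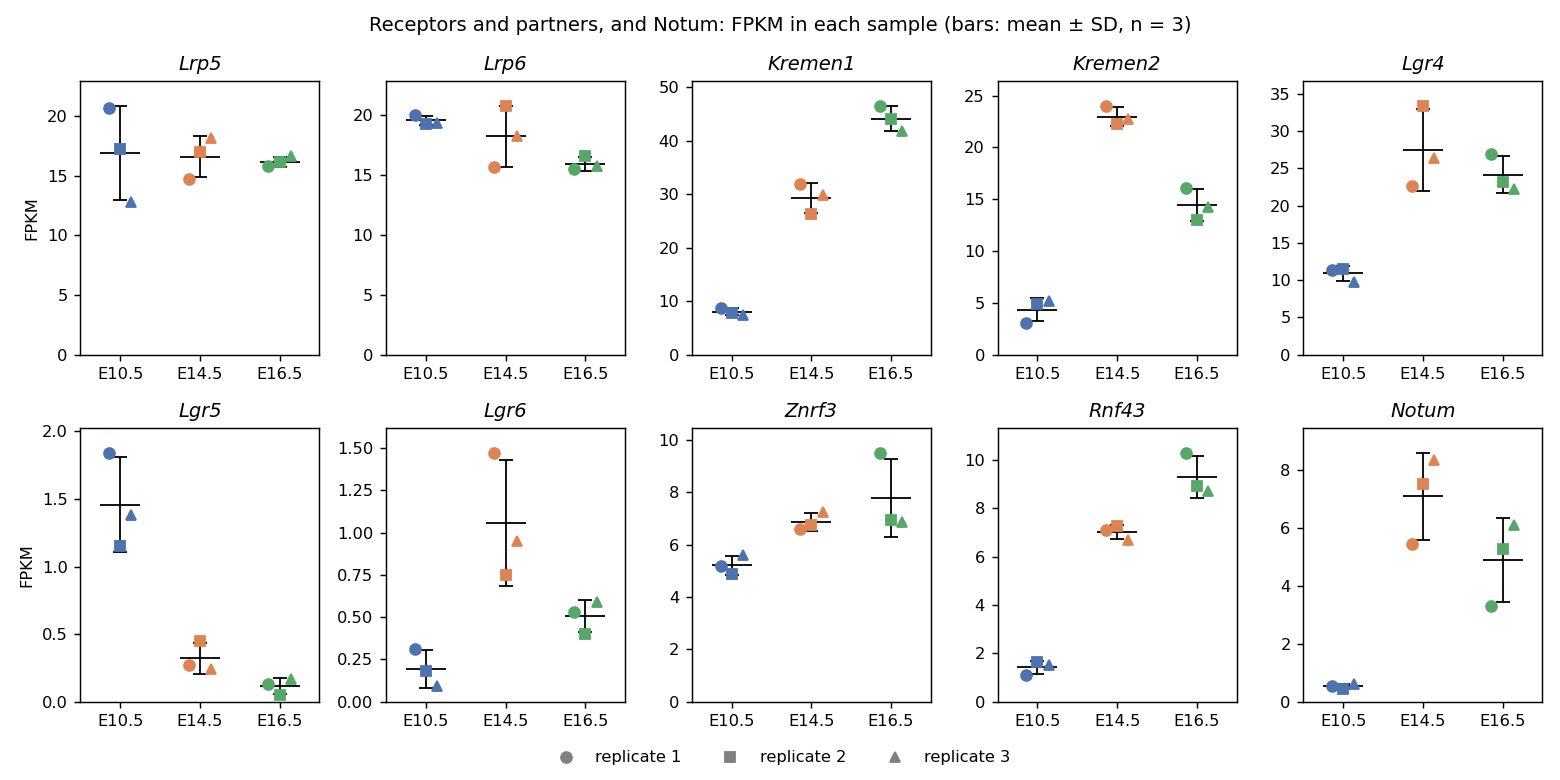
FPKM of the 9 receptors and partners and of *Notum* in each sample by stage, on linear axes that start at 0 and differ between panels, with bars at the mean and SD (n = 3). The means of *Lrp5* and *Lrp6* lie between 15.9 and 19.6 at all stages, whereas all corneal samples exceed all pNC samples for *Kremen1*, *Kremen2*, *Lgr4*, *Lgr6*, *Rnf43* and *Notum* and lie below them for *Lgr5*.

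Of 12 other secreted or surface modulators of the pathway, 7 were tested. *Notum*, a secreted enzyme that inactivates Wnt ligands by removing their lipid, rose from 0.537 ± 0.091 to 7.09 ± 1.49 at E14.5 (log2 fold change 3.70, SE 0.32, adjusted p = 6.1e-06) and 4.89 ± 1.44 at E16.5 (3.32). *Apcdd1*, a membrane-bound Wnt inhibitor, rose from 11.5 ± 1.52 to 42.9 ± 6.80 and 60.3 ± 10.05 (1.88 and 2.53), and *Cer1* rose at low levels (2.44 and 3.38, with means of 0.220, 1.24 and 2.08). *Draxin* fell from 2.38 ± 0.445 to 0.770 ± 0.259 and 0.400 ± 0.105 (-1.63 and -2.41). *Rspo4*, the R-spondin outside the 10 genes, had mean FPKM of 0.470, 1.36 and 0.240 and was called lower at E16.5 than at E14.5 (-2.33, SE 0.69, adjusted p = 0.0233). This call was lost without E14.5 replicate 2, E14.5 replicate 3, E16.5 replicate 1 or E16.5 replicate 3 (adjusted p of 0.0748, 0.0839, 0.0881 and 0.0798), and the change was -3.05 without E16.5 replicate 2. Without E14.5 replicate 1, *Rspo4* was called higher at E14.5 than in pNC (1.98, adjusted p = 0.00171, against 1.52 and 0.0547 with it), and *Draxin* was called lower at E16.5 than at E14.5 (-1.02, against -0.78 with it). *Sostdc1* and *Tpbg* were called in no comparison, and *Dkk4*, *Dkkl1*, *Sfrp4*, *Sfrp5* and *Sost*, with mean FPKM of at most 0.903 at any stage, did not pass the filter on low counts.

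Among the Wnt ligands, 11 of 16 tested were called higher in E14.5 cornea against pNC and 12 in E16.5 cornea, and the remaining 5 and 4 did not pass. The shares called higher over all genes tested were 13.6% and 19.4%. *Wnt3a* rose from 0.107 ± 0.083 to 9.20 ± 3.35 and 11.9 ± 1.21 (log2 fold changes 6.35 and 6.88), *Wnt10a* from 0.510 ± 0.318 to 33.5 ± 16.53 and 65.8 ± 10.4 (6.00 and 7.14), and *Wnt2* from 0.790 ± 0.272 to 39.0 ± 3.70 and 19.7 ± 1.78 (5.60 and 4.77). *Wnt10b* (2.71), *Wnt16* (2.94) and *Wnt11* (1.62) had the largest log2 rises from E14.5 to E16.5 among ligands of FPKM 5 or more. In E14.5 replicate 1 the FPKM of *Wnt10a* was 52.43, against 22.06 and 25.95 in the other E14.5 samples, that of *Wnt11* was 20.95, against 4.23 and 8.21, that of *Wnt10b* was 4.47, against 1.0 and 1.04, and that of *Wnt16* was 2.62, against 0.34 and 0.41. Without this sample the log2 rises from E14.5 to E16.5 were 3.78 for *Wnt10b*, 4.48 for *Wnt16* and 2.44 for *Wnt11*. Against E10.5, *Wnt11* was then higher by 1.79 at E14.5 in place of 2.61, and *Wnt10b* by 1.13 (adjusted p = 0.0734) in place of 2.20 (adjusted p = 0.0179), which ended its call. The call of *Wnt10b* was also lost without E10.5 replicate 1 (1.78, adjusted p = 0.0658) or E10.5 replicate 2 (2.24, adjusted p = 0.05002). Without E10.5 replicate 3, *Wnt3a* was higher by 7.14 at E14.5 and 7.67 at E16.5.

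Of 9 Frizzleds tested, 2 were called higher and 1 lower at E14.5, and 1 higher and 3 lower at E16.5, both against E10.5. Over all genes tested, the shares called higher and lower were 13.6% and 7.97% at E14.5, and 19.4% and 15.4% at E16.5. *Fzd6* rose from 3.74 ± 0.384 to 20.4 ± 12.2 and 53.5 ± 10.4 (log2 fold changes 2.42 and 3.99), *Fzd10* rose at E14.5 (1.20), and *Fzd4* (-1.79) and *Fzd3* (-1.06) were lower at E16.5. *Fzd5*, named after its values were seen, made up the count of lower genes, with -1.96 and -1.49. From E14.5 to E16.5, *Fzd6* rose by 1.56 and *Fzd1* fell by 1.21. The FPKM of *Fzd6* was 34.37 in E14.5 replicate 1, against 14.02 and 12.68, and without that sample its log2 fold change was 1.83 from E10.5 to E14.5 and 2.16 from E14.5 to E16.5. The call of *Fzd10* was lost without E14.5 replicate 3 (0.91). Of 9 feedback and target genes of canonical signaling, 1 was called higher and 3 lower at E14.5, and 1 higher and 2 lower at E16.5. The shares over all genes are those given for the Frizzleds. *Ccnd1*, the cyclin D1 gene, fell by 3.43 and 4.14 and *Bambi* by 1.77 and 3.07 at the 2 stages, *Nkd2* rose at E14.5 (1.49), and *Lef1* was higher at E16.5 (1.11). *Myc* (-1.33 at E14.5), also named after its values were seen, was the other lower gene. *Bambi* (-1.30), *Nkd2* (-1.15) and *Tcf7* (-1.14) were lower at E16.5 than at E14.5. The fold change came under the minimum for *Nkd2* without E14.5 replicate 2 (-0.97) and for *Tcf7* without E14.5 replicate 3 (-0.996), and *Lef1* passed it at E14.5 without E14.5 replicate 1 (1.02, against 0.92 with it). *Axin2*, the common reporter of the pathway and named here after its values were seen, had mean FPKM of 15.3 ± 0.379, 28.0 ± 3.64 and 27.3 ± 1.39, with log2 fold changes of 0.86 (adjusted p = 7.0e-05) and 0.99 (adjusted p = 1.2e-05) against E10.5, both under the fold minimum, which the second passed without E16.5 replicate 1 (1.04).

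Over all 50 tested genes of the pathway outside the 10, 22 were called higher and 6 lower at E14.5, 22 and 7 at E16.5, both against E10.5, and 6 and 8 between E14.5 and E16.5. Over all genes tested, 13.6% were called higher and 7.97% lower at E14.5, and 19.4% and 15.4% at E16.5. Between the corneal stages these shares were 6.26% and 5.47%. The 3 counts of lower genes depended on single samples: the first was 9 without E14.5 replicate 1, 11 without E14.5 replicate 2 and 10 without E14.5 replicate 3, the second 11 without E10.5 replicate 3, and the third 4 without E14.5 replicate 3. The median log2 fold changes of the 50 genes were 0.95, 0.61 and -0.16, beside 0.01, 0.00 and -0.02 for all genes tested and -0.72, -0.11 and -0.39 for the 10 secreted modulators. Both comparisons with E10.5 share the same pNC samples.

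Likeness of pattern was measured as Pearson's r of log2(CPM + 1) over the 9 samples. CPM here are expected counts scaled to library size with the TMM factors, without scaling to transcript length. The 9 samples fall into 3 stages and share depth and tissue makeup, so that a high r mostly reflects stage. The genes most like *Dkk2* were *Sema5a* (r = 0.998), *Ahr* (0.997) and *Erg* (0.997), and those most like *Dkk3* were *Etl4* (0.997), *Spock2* (0.996) and *Prkg1* (0.996). *Dkk1* was most like *Phactr2* (0.984), *Susd4* (0.983) and *Postn* (0.982). *Sfrp1* was most like *Tle5* (0.969), *Sfrp2* like *Zfpm1* (0.981), *Frzb* like *Dpysl2* (0.994) and *Wif1* like *Glis1* (0.962). *Rspo1* was most like *Oga* (0.978), *Rspo2* like *Nubp1* (0.985) and *Rspo3* like *Fut8* (0.978).

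Markers of other tissues differed between stages together with these genes. Epithelial and stromal sums rose from stage to stage, as given above. In the cornea the epithelial sum was mostly keratins, with *Krt5* at 342.86 to 1042.15 at E14.5 and 2074.46 to 2890.55 at E16.5. Between these stages *Trp63* went from 37.95 to 46.18 up to 54.53 to 64.31, and *Cdh1* from 35.14 to 58.12 up to 57.58 to 70.68. *Epcam* went the other way, from 36.47 to 41.39 down to 23.49 to 27.86. Of 4 vascular endothelial genes, *Pecam1* (means of 21.7, 9.34 and 0.827 FPKM at the 3 stages), *Cdh5* (31.9, 13.6 and 1.19) and *Tie1* (19.6, 9.15 and 1.06) were lower in every E16.5 sample than in every E10.5 sample, while *Kdr* (26.8, 30.3 and 26.2) was not and made up most of their sum at E16.5. The sum of the 4 ranged from 68.5 to 122 at E10.5, from 41.2 to 76.6 at E14.5 and from 22.5 to 34.3 at E16.5. The sum of 4 skeletal muscle genes was between 11.2 and 13.5 at E10.5 and at most 0.210 in the cornea, where *Myf5*, *Myod1* and *Myog* were not listed and were taken as 0. *Frzb*, *Rspo2* and *Rspo3* were lower in the cornea too, and the part of vessels or muscle in this was not tested. In E10.5 replicate 3 the vascular sum was 68.5, against 122 and 109, and *Dkk2*, *Dkk3*, *Sfrp2* and *Frzb* were also lowest in this E10.5 sample. Leaving it out gave E14.5 log2 fold changes of 3.87 for *Dkk2*, 3.39 for *Dkk3*, -1.33 for *Sfrp2* and -2.67 for *Frzb*.

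The sum of 6 genes of retina and its pigment epithelium was between 46.6 and 60.8 at E10.5, between 54.2 and 98.9 at E14.5 and between 25.9 and 28.1 at E16.5, and the sum of 7 genes of the periocular mesenchyme was between 290 and 320, between 513 and 808 and between 405 and 499. Of the retinal list, the pigment genes *Pmel* (22.9, 34.1 and 9.67) and *Dct* (7.11, 21.1 and 4.32) had their highest mean at E14.5, whereas *Rax* and *Six6* were at most 0.410 in any corneal sample. Both sums had their highest median at E14.5, as did *Wif1*. Within E14.5 both sums and *Wif1*, *Frzb*, *Rspo2* and *Dkk2* were lowest in replicate 1 and highest in replicate 3. Without E14.5 replicate 1, *Wif1* was 2.08 higher at E14.5 than at E10.5 on the log2 scale (adjusted p = 2.6e-05), *Frzb* was at -2.32 and *Rspo2* at -1.11 (adjusted p = 0.00717). The sum of 4 corneal endothelial genes was between 30.3 and 45.2 at E10.5, between 273 and 336 at E14.5 and between 198 and 239 at E16.5. Its rise was that of *Col8a1* (0.960, 88.4 and 60.3) and *Col8a2* (10.6, 192 and 157), while *Cdh2*, most of the sum at E10.5, went the other way (27.7, 14.4 and 5.10) and *Slc4a11* was at most 2.31. The sum of 4 globin genes was between 4153 and 6608 at E10.5 and between 644 and 1348 at E16.5, where the embryonic globin genes *Hba-x* and *Hbb-y* had means of 1.82 and 2.87, *Hba-a1* made up nearly all of the sum and *Hbb-bt* was listed in no sample. The sum of 5 lens genes was between 1.74 and 5.36 at E10.5, between 25.25 and 41.84 at E14.5 and between 43.7 and 49.3 at E16.5. In the cornea it was nearly all *Cryab* (23.21 to 47.44), while *Cryaa*, *Cryba1*, *Crygs* and *Mip* were at most 1.94 in any sample. The sum of 3 Schwann cell genes was between 21.0 and 29.1 at E10.5. It was between 8.59 and 12.1 at E14.5 and between 7.81 and 9.58 at E16.5. The part of these tissues in the levels of the 10 genes was not tested.

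**Figure D5:**
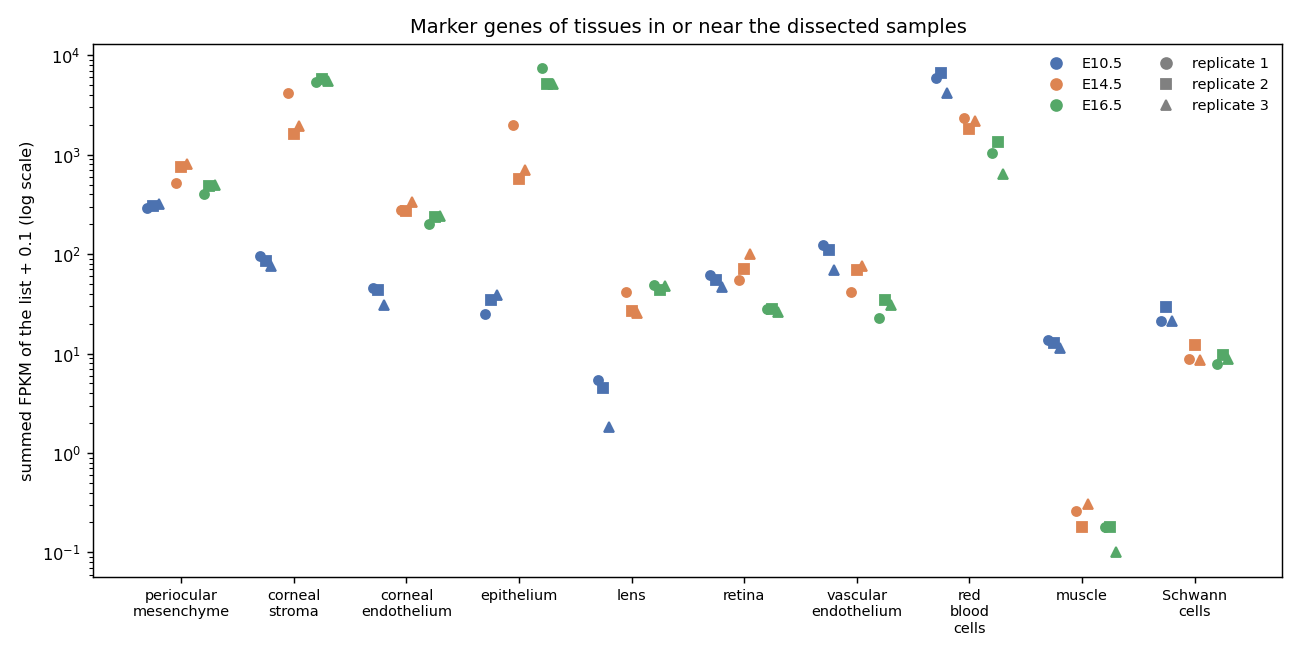
Summed FPKM of 10 lists of marker genes in each sample, on a log axis with 0.1 added, colored by stage with marker shapes for replicates. Stroma and epithelium rise by stage, with E14.5 replicate 1 above the other E14.5 samples in both, the vascular and red blood cell sums are lower at E16.5 than at E10.5, and muscle genes are near 0 in the cornea.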

How the data were processed

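RNA-Seq was measured in 9 samples of wild-type embryos, 3 per stage, grouped by the stage in the sample labels. The authors filtered reads for adaptors and quality, mapped them with Bowtie2 to reference genes and with HISAT to GRCm38, and quantified genes with RSEM; tool versions are not given in the sources used here. The deposited expected counts are estimates and are not normalized. The FPKM values were made by the authors from these counts, scaled to transcript length and to the total of each sample, so that a few very abundant genes lower the FPKM of all others. Genes absent from a sample's list were taken as 0.

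Expected counts were rounded, filtered with filterByExpr (minimum count 10), scaled by TMM and fitted with edgeR 4.0.16 in R 4.3.3 in 1 quasi-likelihood model of stage over all 9 samples. TMM factors lay between 1.01 and 1.06 at E10.5 and E14.5 and between 0.917 and 0.940 at E16.5. Benjamini-Hochberg adjustment was over all genes tested, and SE and 95% intervals were derived from the F statistic. Intervals and p-values measure the spread between pooled samples of the same stage, estimated over all 3 stages together. Alternatives were library totals, DESeq2 1.42.0, no filter, a replicate block, the 6 samples compared, each sample left out, limma 3.58.1 on log2(FPKM + 1) and log2(FPKM + 0.1), no minimum fold change, and the NOISeq probability (at least 0.8, with zeros set to 0.01 and an absolute log2 ratio of 1 or more) of the study's methods recomputed from FPKM with Python 3.11.15. Scripts were tested on simulated data. No samples held identical values.

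The 10 genes, the other gene lists and the tests were chosen with earlier results of these data known. Named are all 10 genes, all receptors, partners and other modulators, and from Wnt ligands, Frizzleds and feedback targets up to 3 per comparison with the largest absolute log2 fold change among called genes whose mean FPKM reached 5 in a stage compared. *Axin2*, *Fzd5* and *Myc* lie outside this rule. Symbols, positions and promoters come from RefSeq (GRCm38.p6), matched by Entrez Gene identifier for 19312 of 19369 genes.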

Additional observations from a re-analysis of the deposited data

How the results depend on the processing

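No result changed direction while called. Leaving out 1 sample gave 4 to 5 members lower in E14.5 cornea than in pNC and 1 to 3 lower at E16.5 than at E14.5, the latter losing *Frzb* and *Rspo2*. NOISeq called 3 members lower in E14.5 cornea than in pNC, without *Rspo2* and *Rspo3*, whose levels are low, and 1 lower at E16.5 than at E14.5, as did limma on log2(FPKM + 1), a scale that shrinks changes of low genes. With no minimum fold change, 2 members were higher at E16.5 than at E14.5. Among the other 50 pathway genes, those lower in E14.5 cornea than in pNC numbered 11 with no filter, 6 to 11 with 1 sample left out (11 without E14.5 replicate 2, 10 without E14.5 replicate 3), 3 with limma on log2(FPKM + 1) and NOISeq, and 10 with no minimum fold change. Those lower at E16.5 than at E10.5 numbered 12 with no filter or no minimum fold change and 7 to 11 with 1 sample left out (11 without E10.5 replicate 3). Those lower at E16.5 than at E14.5 numbered 4 to 11 with 1 sample left out (4 without E14.5 replicate 3), 5 with limma on log2(FPKM + 1), 14 with no minimum fold change and 4 with NOISeq. The fall of *Frzb* from E14.5 to E16.5 was also lost with only the 6 samples compared (adjusted p = 0.0791). The cause of these shifts was otherwise not tested. Of the recomputed log2 fold changes of the 10 genes, 490 kept their side of the threshold and 20 lost the call. Over all genes, limma on log2(FPKM + 0.1) gave 749 higher and 993 lower between E14.5 and E16.5.

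The replicate numbers share no stated animal or batch, and deviations from the stage means correlated at -0.0341 on average over 9 pairs of samples with the same number (range -0.256 to 0.216) and at 0.0178 over 18 pairs with different numbers. With the replicate block, the members called were 4 higher and 5 lower at E14.5, 3 and 3 at E16.5, both against E10.5, and 1 and 3 between E14.5 and E16.5, and the other pathway genes 22 and 6, 22 and 7, and 6 and 8, as without it. Depth limits *Frzb*, *Rspo2* and *Rspo3* in the cornea most, where E16.5 means rest on 13.3, 24.3 and 14.3 counts per sample.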
